A study of Homo sapiens with 6 samples.

Results

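The gene expression of a ridaforolimus-resistant line was compared directly with that of an everolimus-resistant line, both derived from MDA-MB-231, established human cells of triple-negative breast cancer with mesenchymal character. The comparison uses the 4 libraries that the labels assign to the resistant lines, of 6 in all, with 2 libraries per line, and the 2 parental libraries give the reference level. The ridaforolimus line had been kept in 30 µM ridaforolimus and the everolimus line in 20 µM everolimus, each for several months. Parental cells had neither drug per the treatment protocol, while one label field gives them DMSO. Each line is a single derivative, its doses are not matched to those of the other line, and the labels do not say that the 2 libraries of a line came from separate cultures, so p-values measure only the spread between these libraries. Drug, dose and the history of each derivative cannot be told apart. Depth ranged from 13134567 to 15556246 counts per library, and 21223 of the 69292 gene identifiers had enough counts to be tested.

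Both drugs are analogs of rapamycin. They bind the immunophilin FKBP12, and the complex inhibits mTORC1, the mTOR kinase complex that drives protein synthesis, lipid synthesis and cell growth in response to nutrients and growth factors. They carry different groups on the same hydroxyl of rapamycin's cyclohexyl side chain, a hydroxyethyl ether in everolimus and a dimethylphosphinate in ridaforolimus. Cells selected in such drugs are studied for bypass signalling through PI3K, AKT and receptor kinases, and the series title also names PMEPA1 and TGF-beta signalling.

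A limited set of genes passed the test between the lines. With 2 libraries per line, that number does not measure how far the lines differ. The lipid flippase ATP10A, the apolipoprotein APOL6, the peptide hormone receptor VIPR1 and the innate immune receptor TLR4 were lower in the ridaforolimus line, and the matrix protein LTBP2, the transcription factor TP63 and the calcium binder CALB2 were higher. Of the 21223 genes, 158 passed an adjusted p of 0.05 (0.744%), 100 of them higher (0.471%) and 58 lower (0.273%) in the ridaforolimus line. Chromosomes 1 to 22 held 122 of these calls (66 higher, 56 lower, 0.622% of 19614 autosomal genes tested), and the text is mainly about them. In all 122 the lines did not overlap, meaning that both libraries of one line lay above both of the other, which also held for 41.2% of all genes tested. An unadjusted p under 0.05 was reached by 14.1% of genes tested, or 3001.

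These calls depended on the parental libraries for their estimate of the spread. The parental libraries lay closer together (median log2 difference 0.17) than the everolimus (0.31) and ridaforolimus libraries (0.28). The shared spread can therefore be smaller than that of the lines compared. A fit to the 4 resistant libraries alone called 0 genes in edgeR, with 2151 at an unadjusted p under 0.05 and a lowest adjusted p of 0.0533, while on all 6 libraries DESeq2 called 657 and limma-voom 113. The count of 158 became 16 without parental replicate 1, 0 without parental replicate 2 (2197 at an unadjusted p under 0.05), 77 and 62 without everolimus replicate 1 or 2, and 53 and 5 without ridaforolimus replicate 1 or 2. For the 122 autosomal calls these counts were 11, 0, 60, 54, 40 and 4, in the same order. All 122 autosomal genes kept their direction in each of 15 other settings in which they were tested. Since the lines did not overlap in any of them, this was nearly fixed in advance and is no separate support. Of the 122, 25 passed in at least 10 of these settings, and ACP7 and CALB2 passed in 13.

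The upstream sequences of 2 lower genes (ATP10A and VIPR1) and 2 higher genes (ACP7 and LTBP2) are shown as examples, chosen with their values in view, of genes that passed under at least 12 of the 15 other settings; TP63 also met this and has an entry but is not printed. Each is the 250 bases before the RefSeq gene start on GRCh38.p14, written 5′ to 3′ on the strand of the gene, with every CpG in capitals. The stretch of ATP10A lies at chr15:25863328-25863577 (minus strand) with 31 CpG and VIPR1 at chr3:42489049-42489298 (plus) with 3. That of ACP7 lies at chr19:39084118-39084367 (plus) with 25 CpG and LTBP2 at chr14:74612238-74612487 (minus) with 23. In GENCODE 29 the stretches of ATP10A (gene end at 25865172) and ACP7 (gene start at 39083913) lie inside the gene as annotated there, that of LTBP2 overlaps its end at 74612378, and that of VIPR1 ends just before the start at 42489299. The median over 26246 autosomal entries was 11 (quartiles 3 and 23), so VIPR1 stands at the lower quartile and the other three at or above the upper one.
ATP10A: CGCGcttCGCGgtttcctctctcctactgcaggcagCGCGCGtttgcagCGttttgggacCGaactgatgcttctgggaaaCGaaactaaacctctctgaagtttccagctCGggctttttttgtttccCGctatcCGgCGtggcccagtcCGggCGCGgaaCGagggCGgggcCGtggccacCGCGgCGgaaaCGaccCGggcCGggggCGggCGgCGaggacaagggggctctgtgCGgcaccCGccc
VIPR1: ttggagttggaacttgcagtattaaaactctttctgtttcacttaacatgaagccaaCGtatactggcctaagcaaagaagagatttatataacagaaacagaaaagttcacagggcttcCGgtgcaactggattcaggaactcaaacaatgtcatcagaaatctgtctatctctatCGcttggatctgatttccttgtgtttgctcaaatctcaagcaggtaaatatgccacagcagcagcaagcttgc
ACP7: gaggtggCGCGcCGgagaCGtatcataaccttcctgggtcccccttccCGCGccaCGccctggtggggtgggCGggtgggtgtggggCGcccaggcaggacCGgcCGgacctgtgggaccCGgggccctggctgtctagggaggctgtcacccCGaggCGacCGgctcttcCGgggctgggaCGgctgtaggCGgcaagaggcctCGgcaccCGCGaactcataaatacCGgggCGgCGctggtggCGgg
LTBP2: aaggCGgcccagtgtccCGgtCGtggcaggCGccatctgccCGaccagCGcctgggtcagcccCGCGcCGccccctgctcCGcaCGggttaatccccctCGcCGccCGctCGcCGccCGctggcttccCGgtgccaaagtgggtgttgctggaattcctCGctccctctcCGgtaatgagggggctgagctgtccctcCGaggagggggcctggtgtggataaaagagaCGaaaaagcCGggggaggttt
Entries were found for 46 of the 66 higher and 42 of the 56 lower genes, under 80% of each, so no check of base composition over these sets was valid, and APOL6, CALB2, GLB1L2, KIF21B and NNMT had none.

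Among genes of lipid handling and metabolism, ATP10A, APOL6, PLIN4 and NNMT were lower in the ridaforolimus line and GRAMD1B was higher. Of 16 tested apolipoprotein L and lipid flippase genes 2 were lower (APOL6 and ATP10A) and 0 higher in edgeR and limma-voom, while DESeq2 called 2 lower and 1 higher, and the median was 0.02. Of 23 tested fatty acid and lipid droplet genes 1 was lower (PLIN4) and 0 higher in edgeR and limma-voom, while DESeq2 called 3 lower and 1 higher, with a median of -0.30, beside -0.02 over all genes. ATP10A, which moves phospholipids across the plasma membrane, was at 30.2 and 25.2 CPM (counts relative to the scaled library size) in the everolimus libraries, 3.12 and 3.87 CPM in the ridaforolimus libraries and 21.3 and 20.9 CPM in the parental ones. The log2 fold change of ridaforolimus over everolimus was -2.98 ± 0.25 (standard error; adjusted p = 0.0116). The ridaforolimus libraries were far below parental and the everolimus libraries slightly above. APOL6, a cytoplasmic member of the apolipoprotein L family, was also far below parental in the ridaforolimus line only, with 80.2 and 43.9 CPM in everolimus, 3.89 and 3.58 CPM in ridaforolimus and 49.2 and 47.9 CPM in parental libraries (-4.05 ± 0.33, adjusted p = 0.0116). NNMT, which methylates nicotinamide, was at 153 and 80.8 CPM in everolimus, 4.80 and 12.5 CPM in ridaforolimus and 124 and 164 CPM in parental libraries (-3.75 ± 0.48, adjusted p = 0.0212). PLIN4, which coats lipid droplets, was at 48.3 and 28.5 CPM against 8.77 and 9.21 CPM (-2.09 ± 0.28, adjusted p = 0.0255), with parental libraries at 41.9 and 48.4 CPM. For these 4 genes the everolimus line lay near the parental level and the ridaforolimus line far below it. GRAMD1B, which carries cholesterol from the plasma membrane to the endoplasmic reticulum, was higher in the ridaforolimus line, at 7.32 and 14.5 CPM against 0.145 and 0.595 CPM (4.82 ± 0.60, adjusted p = 0.0183).

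Receptors differed in both directions. VIPR1, the receptor of vasoactive intestinal peptide whose upstream sequence is shown above, was at 30.6 and 33.2 CPM in the everolimus line, 2.59 and 1.90 CPM in the ridaforolimus line and 3.13 and 6.62 CPM in parental cells. The log2 fold change was -3.82 ± 0.39 (adjusted p = 0.0116), and here the everolimus line was the one far from parental. The antisense gene VIPR1-AS1 overlaps it and moved with it (-4.18), and since the strand setting of the counting is not given in the sources used here, reads of the pair cannot be told apart. TLR4, the receptor of bacterial lipopolysaccharide, was at 67.1 and 76.0 CPM in everolimus, 16.6 and 19.1 CPM in ridaforolimus and 28.6 and 31.1 CPM in parental libraries (-2.0 ± 0.20, adjusted p = 0.0116). The parental libraries lay between the lines. The death receptor TNFRSF21 (-1.92, adjusted p = 0.0116) and LFNG, which glycosylates Notch receptors (-1.90, adjusted p = 0.0129), were also lower. ITGAX, an integrin subunit best known from myeloid cells, was higher, at 4.80 and 13.7 CPM against 0.942 and 0.727 CPM (3.46 ± 0.58, adjusted p = 0.0461), and so was the actin bundler LCP1, at 121 and 108 CPM against 22.7 and 37.5 CPM (1.93 ± 0.27, adjusted p = 0.0286). Of the 12 leukocyte markers CD3E and MS4A1 were at 0 in all 6 libraries and PTPRC was at most 0.511 CPM, while CSF1R reached 4.93 CPM and CD14 2.14 CPM. Their summed level was 7.75 and 5.09 CPM in everolimus, 4.34 and 5.48 CPM in ridaforolimus and 8.10 and 4.23 CPM in parental libraries, and on this sum the lines overlapped.

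**Figure D1:**
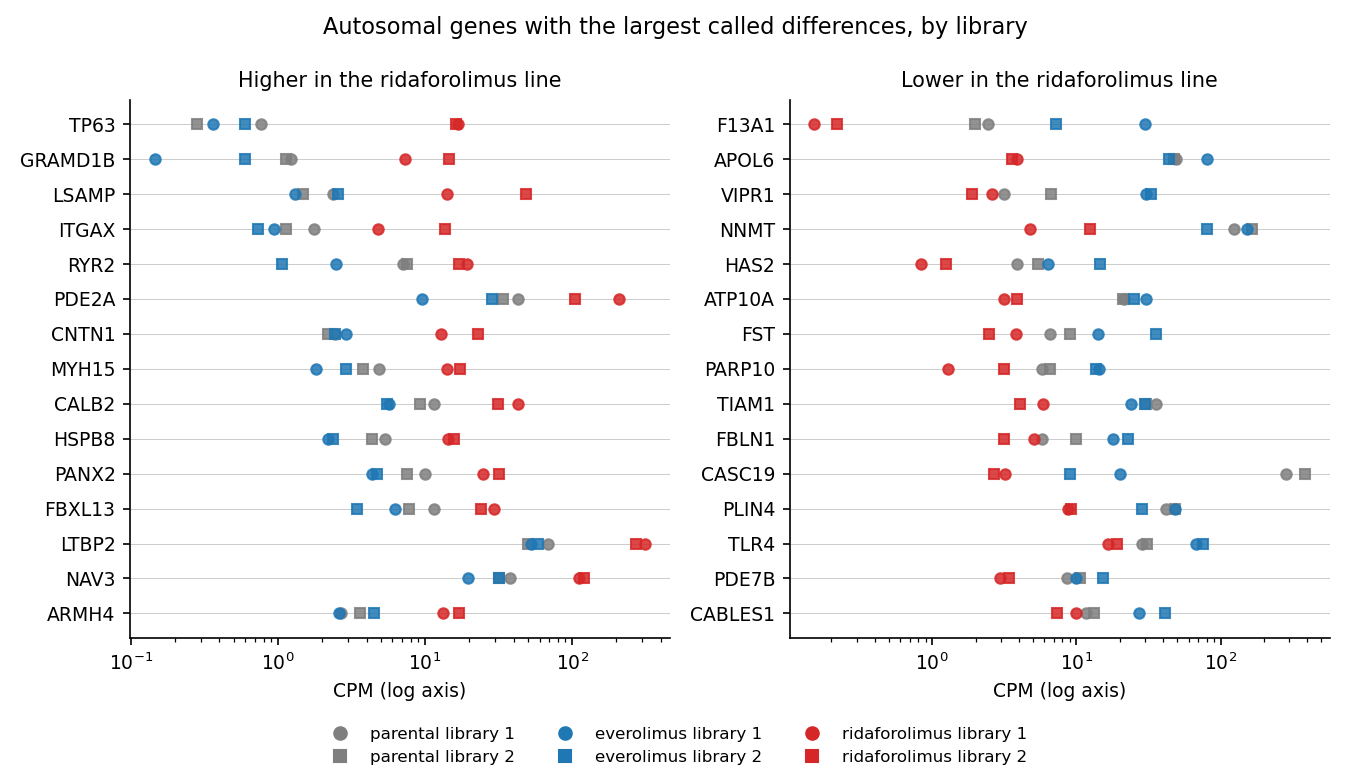
CPM (log axis) in each of the 6 libraries for the 15 autosomal genes, long non-coding and antisense names of the LINC, AS or clone type left out, with the largest called rise (left) and fall (right) in the ridaforolimus over the everolimus line among genes whose 4 resistant libraries averaged 5 CPM or more. Circles are library 1 and squares library 2 of a group; in every gene shown the 2 ridaforolimus libraries (red) lie on one side of both everolimus libraries (blue), and the parental ones (grey) lie near the everolimus line for TP63 and APOL6, near the ridaforolimus line for VIPR1, and far above both for CASC19.

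Extracellular matrix and secreted factors differed in both directions. LTBP2, a fibrillin-binding matrix protein, was at 52.3 and 58.3 CPM in everolimus, 315 and 270 CPM in ridaforolimus and 68.2 and 49.9 CPM in parental libraries (2.40 ± 0.22, adjusted p = 0.0116), so that only the ridaforolimus line stood apart. LAMB3, a laminin chain of epithelial basement membranes, was at 376 and 338 CPM in everolimus, 1180 and 1462 CPM in ridaforolimus and 586 and 372 CPM in parental libraries (1.89 ± 0.27, adjusted p = 0.0286). F13A1, the transglutaminase subunit of coagulation factor XIII, had the largest difference downwards among genes averaging 5 CPM or more. It stood at 30.1 and 7.27 CPM in the everolimus line against 0.152 and 0.219 CPM in the ridaforolimus line, and parental libraries at 2.44 and 1.97 CPM (-6.58 ± 0.85, adjusted p = 0.0212). HAS2, which makes hyaluronan, was at 6.38 and 14.7 CPM against 0.838 and 1.24 CPM (-3.33 ± 0.50, adjusted p = 0.0354). The everolimus libraries differed more than 2-fold from each other for F13A1 and HAS2, and also for FST. FST, a secreted binder of activin, was at 14.1 and 35.4 CPM against 3.81 and 2.48 CPM (-2.97 ± 0.48, adjusted p = 0.0403), and the matrix protein FBLN1 at 18.0 and 22.9 CPM against 5.11 and 3.14 CPM (-2.31 ± 0.37, adjusted p = 0.0403). F3, the tissue factor that starts coagulation, was at 187 and 191 CPM against 61.1 and 75.1 CPM (-1.47 ± 0.19, adjusted p = 0.0214), with parental libraries at 190 and 197 CPM. Of 23 tested fibrillins, fibulins and other matrix proteins, LTBP2 was the 1 that was higher and FBLN1, HAS2 and MXRA8 (-1.49 ± 0.24) the 3 that were lower, and 19 did not pass.

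The calcium binder CALB2, the channel proteins RYR2 and PANX2 and the phosphodiesterase PDE2A were higher in the ridaforolimus line, and the phosphodiesterase PDE7B was lower; of these only CALB2 belongs to a gene list used here. CALB2, the calcium-binding protein calretinin, was at 5.72 and 5.49 CPM in everolimus, 43.1 and 31.1 CPM in ridaforolimus and 11.5 and 9.23 CPM in parental libraries (2.73 ± 0.27, adjusted p = 0.0116), with the parental level between the lines. RYR2, a calcium release channel, was at 2.46 and 1.06 CPM against 19.2 and 17.0 CPM (3.37 ± 0.39, adjusted p = 0.0137), and PANX2, a pannexin channel protein, at 4.35 and 4.69 CPM against 24.9 and 31.6 CPM (2.64 ± 0.27, adjusted p = 0.0116). PDE2A, a phosphodiesterase of cyclic AMP and cyclic GMP, was at 9.56 and 28.6 CPM against 207 and 105 CPM (3.03 ± 0.52, adjusted p = 0.0496), and the libraries of each line lay far apart while the lines did not overlap. PDE7B, a phosphodiesterase of cyclic AMP, was lower, at 10.0 and 15.3 CPM against 2.97 and 3.43 CPM (-1.98 ± 0.32, adjusted p = 0.0403). Of 13 tested S100 proteins and calcium binders CALB2 was the 1 that was higher, and 0 were lower in edgeR and limma-voom and 1 in DESeq2. Of the 13 estimates 9 were below 0 (median -0.30).

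The transcription factor TP63 and the adhesion molecules LSAMP and CNTN1 were higher in the ridaforolimus line, and the Rac activator TIAM1 and the transcription factor GATA3 were lower. TP63, the p53-family factor of basal epithelia, was at 0.362 and 0.595 CPM in everolimus, 16.8 and 16.1 CPM in ridaforolimus and 0.764 and 0.282 CPM in parental libraries (5.07 ± 0.46, adjusted p = 0.0116). Only the ridaforolimus line carried it above 1 CPM, while the list of 8 tested basal and squamous genes had 5 estimates below 0 and TP63 as its single call. The adhesion molecules LSAMP, at 1.30 and 2.58 CPM against 14 and 48.9 CPM (4.0 ± 0.64, adjusted p = 0.0403), and CNTN1, at 2.90 and 2.45 CPM against 12.8 and 22.9 CPM (2.74 ± 0.36, adjusted p = 0.0220), were the 2 higher calls in a list of 16 tested adhesion molecules of the immunoglobulin and cadherin families. In that list DESeq2 called 3 higher and limma-voom 1, and 0 were lower in edgeR, DESeq2 or limma-voom. The cadherin CDH12 is outside the list and was lower (-5.98, adjusted p = 0.0200). TIAM1, an activator of the GTPase Rac, was at 24.1 and 30.1 CPM in everolimus, 5.87 and 4.09 CPM in ridaforolimus and 35.4 and 30.3 CPM in parental libraries (-2.44 ± 0.27, adjusted p = 0.0129). NAV3, which binds microtubules, was higher (2.16 ± 0.26, adjusted p = 0.0169), as were the myosin MYH15 (2.73 ± 0.34, adjusted p = 0.0183) and the small heat-shock protein HSPB8 (2.71 ± 0.29, adjusted p = 0.0116). ESRP1, a splicing factor of epithelial cells, was at 3.26 and 3.64 CPM against 12.8 and 11.2 CPM (1.79 ± 0.29, adjusted p = 0.0403), and GATA3, a factor of luminal breast cells, was lower, at 3.91 and 5.88 CPM against 0.915 and 0.95 CPM (-2.38 ± 0.38, adjusted p = 0.0403). GATA3 was the 1 call among 8 tested luminal markers in edgeR (limma-voom called 0, DESeq2 1 higher and 1 lower), of which 4 had estimates above 0 and 4 below. KRT19, a luminal keratin, was at 23 and 49.3 CPM against 85.8 and 118 CPM (adjusted p = 0.106), and the summed level of the luminal list was 617.8 to 837.6 CPM over the 6 libraries. The long non-coding RNA CASC19 was at 19.9 and 9.06 CPM in everolimus, 3.2 and 2.7 CPM in ridaforolimus and 283 and 386 CPM in parental libraries (-2.29 ± 0.39, adjusted p = 0.0499). The remaining named genes, FBXL13 and ARMH4 (higher), PARP10 and CABLES1 (lower), had log2 fold changes of 2.46, 2.09, -2.65 and -1.98.

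Several genes below 5 CPM were close to absent from one line, and the examples were picked with their values in view. GLB1L2, a beta-galactosidase-like protein, had 225 counts over the everolimus libraries and 0 over the ridaforolimus ones, which set against a floor of 3 counts over the group is at least 69.5-fold lower. KIF21B, a kinesin motor, had 197 and 0 counts, at least 60.8-fold lower. Parental libraries had 3.74 and 3.66 CPM of GLB1L2 and 9.17 and 7.47 CPM of KIF21B, so the ridaforolimus line was the one without counts. The glutamate transporter SLC1A7 had 229 against 2 counts, a ratio of 106 (95% counting interval 29 to 881), and the cadherin CDH12 had 85 against 1, a ratio of 78.8 (13.8 to 3147). In the other direction ACP7, an acid phosphatase-like protein, had 3 counts in the everolimus line, and the ratio was 65.5 (22.1 to 320). Such ratios cover counting error only, and the fitted values of these genes depend on the prior count. In bulk RNA, fewer cells that express a gene and less RNA per cell cannot be told apart.

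**Figure D2:**
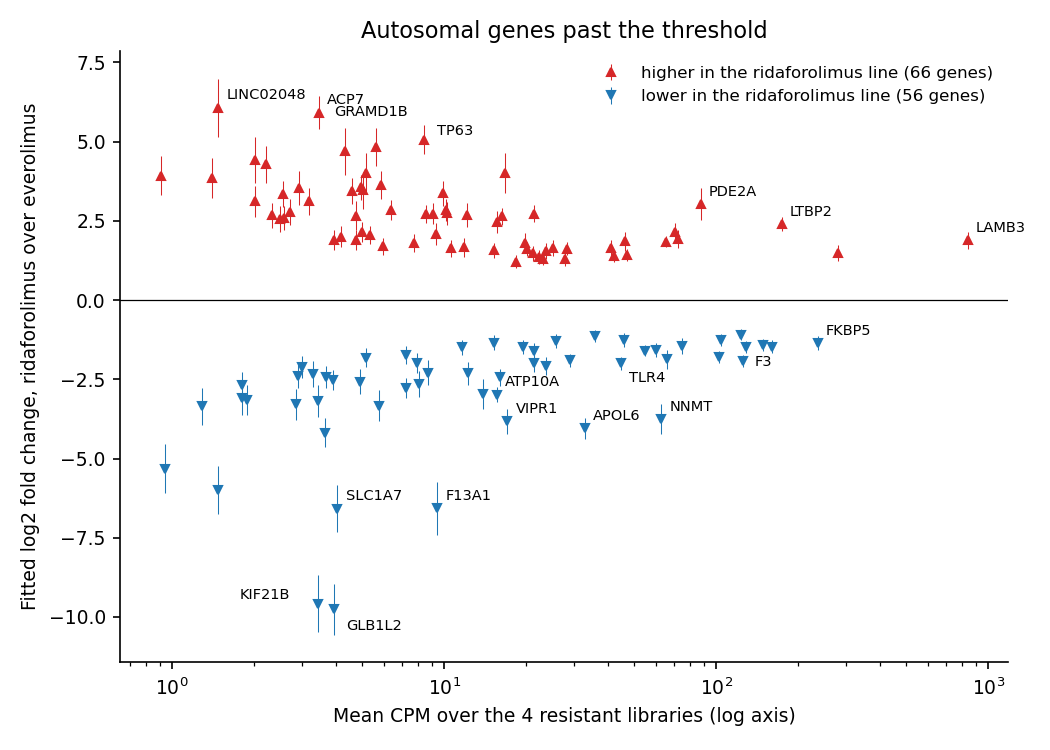
Fitted log2 fold change of the ridaforolimus over the everolimus line against mean CPM over the 4 resistant libraries (log axis) for the 122 autosomal genes past an adjusted p of 0.05, with the standard error of the fold change as bars. Upward triangles are the 66 higher and downward triangles the 56 lower genes; the lowest points, GLB1L2 and KIF21B, had 0 counts in the ridaforolimus line, so their fitted values depend on the prior count.

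The parental libraries place each line against a reference level. For 80 of the 122 autosomal genes (48 higher, 32 lower) the lines lay on opposite sides of both parental libraries, which held for 5.25% of all genes tested; the size of the direct difference chose these genes, so this share is a description. For 27 genes only the ridaforolimus line was outside the parental range, for 4 only the everolimus line (PLEK2, DZIP1, CDS1 and CPE), and for 11 both were outside on the same side. Over all genes tested, the ridaforolimus line alone was above parental for 12.8% and below for 12.1%, so the 27 are no excess. The everolimus line alone was above for 8.55% and below for 8%, and both lines were above for 9.54% and below for 9.74%. The ridaforolimus line was farther from the parental mean for 83 genes and the everolimus line for 39, counts for which no share over all genes was worked out. The 3 comparisons share libraries, so their calls are not independent. Against parental cells 68 genes passed in the ridaforolimus line (0.32%) and 1, CASC19, in the everolimus line (0.00471%). The 68 became 1 without parental replicate 1 or 2, 180 and 171 without everolimus replicate 1 or 2, and 2 without ridaforolimus replicate 2, and the 1 became 0 without either parental or either ridaforolimus library and 2 without everolimus replicate 2. Of the 122 autosomal genes 31 were also called against parental in the first and 1 in the second. CPE, a carboxypeptidase of peptide hormone processing, shows the rarer pattern: 0.580 and 0.0661 CPM in everolimus, 4.73 and 12 CPM in ridaforolimus and 5.96 and 5.07 CPM in parental libraries.

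Among components of the drugs' target pathway few differences passed the test, as was so among all genes tested (0.744%). Of 59 tested PI3K, AKT and mTOR components 1 passed, PIK3CD, a catalytic subunit of PI3K, at 11.2 and 11.3 CPM in everolimus, 25.6 and 37.0 CPM in ridaforolimus and 15.7 and 17.6 CPM in parental libraries (1.47 ± 0.25, adjusted p = 0.0476). DESeq2 called 3 members of this list higher and 1 lower, and limma-voom 0. The median of the list was -0.07, against -0.02 for all genes tested. MTOR stood at -0.35 (95% interval -0.87 to 0.18), RPTOR at 0.25 (-0.16 to 0.67), RICTOR at -0.10 (-0.65 to 0.45) and AKT1 at -0.17 (-0.74 to 0.39). The mTORC1 substrates EIF4EBP1 and RPS6KB1 stood at 0.28 (-0.73 to 1.29) and -0.10 (-0.55 to 0.34). FKBP1A, which encodes FKBP12, was at 177 and 216 CPM in everolimus and 188 and 214 CPM in ridaforolimus libraries (0.03, interval -0.42 to 0.49). Its relative FKBP5, a co-chaperone of steroid receptors, was the 1 of 16 tested FK506-binding proteins that passed, at 366 and 312 CPM against 108 and 158 CPM (-1.35 ± 0.23, adjusted p = 0.0499), with parental libraries at 321 and 326 CPM. Of 13 tested ABC drug transporters 0 passed in edgeR, DESeq2 or limma-voom. In edgeR 1 had an unadjusted p under 0.05, beside 14.1% of all genes tested, and ABCG2 stood at 0.44 (-1.13 to 2.02).

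TGF-beta signalling, which the series title names, also showed few calls, where 0.744% of all genes tested passed. PMEPA1, an inhibitor of SMAD signalling that TGF-beta induces, was at 29.9 and 47.1 CPM in everolimus, 50.1 and 47.6 CPM in ridaforolimus and 23.2 and 13.3 CPM in parental libraries. Both lines lay above parental, and the lines differed by 0.34 on the log2 scale (interval -0.36 to 1.05, adjusted p = 0.672). Of 34 tested ligands, receptors and SMADs the activin binder FST alone passed in edgeR, while DESeq2 called 3 lower and limma-voom 0; the median was 0.06, and SMAD3 stood at 0.59 (adjusted p = 0.282), SMAD7 at -0.61 (0.396), TGFBR1 at -0.26 (0.611) and TGFBR2 at -0.19 (0.890). Of 27 SMAD target and feedback genes LTBP2 was the 1 call, 19 estimates were above 0, and the median of 0.45 became 0.05 without ridaforolimus replicate 2. Among ligands, BMP6, a bone morphogenetic protein that is in neither list, was at 0.435 and 0.859 CPM against 6.63 and 4.82 CPM (3.12 ± 0.43, adjusted p = 0.0286).

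Gene lists are described next by the direction of their members. Interferon-stimulated genes and the genes of antigen presentation leaned lower in the ridaforolimus line, and glycolysis and hypoxia-inducible genes leaned higher. In these 5 lists PGK1, on chromosome X, was the 1 member that passed. Of 36 tested interferon-stimulated genes 35 had estimates below 0 (median -0.56), where 51.7% of all genes did, and 0 passed in edgeR. An unadjusted p under 0.05 was reached by 12, beside 14.1% of all genes tested. OAS3, a sensor of double-stranded RNA, was at 19.2 and 38.9 CPM against 8.31 and 8.84 CPM (-1.76, adjusted p = 0.0711), IFIT2 stood at -1.20 (0.0792), OASL at -1.21 (0.0912) and ISG15 at -1.13 (0.100). As a mean log2 level relative to the average of all 6 libraries, the list was at 0.48 and 0.21 in everolimus, -0.59 and -0.17 in ridaforolimus and 0.10 and -0.02 in parental libraries, so both lines lay off parental, on opposite sides. The median stayed between -1.03 and -0.43 when any 1 library was left out. DESeq2 called 7 of these genes lower and limma-voom 0.

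MHC class II genes and their control had 8 of 9 estimates below 0 (median -1.09) and 0 calls in edgeR. An unadjusted p under 0.05 was reached by 5, beside 14.1% of all genes tested. The median was -1.73 without everolimus replicate 2 and -0.81 without everolimus replicate 1. CIITA, the master activator of class II genes, was at 16.7 and 9.25 CPM against 4.88 and 4.46 CPM, with parental libraries at 15.1 and 13.5 CPM (-1.47, adjusted p = 0.0997), and HLA-DRA stood at -1.81 (0.154). MHC class I and peptide loading had 18 of 20 below 0 (median -0.45, and -0.12 without everolimus replicate 1), also with 0 calls in edgeR. Here 5 had an unadjusted p under 0.05, beside the same 14.1%, and the immunoproteasome subunit PSMB8 stood at -2.0 (0.0666). On the same relative scale the class I list was at 0.51 and 0.03 in everolimus against -0.55 and 0.10 in ridaforolimus libraries, so on this level the lines overlapped. DESeq2 called 1 class II and 2 class I genes lower and limma-voom 0. HLA genes are similar to one another, and reads shared between them could have been lost or split in counting.

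**Figure D3:**
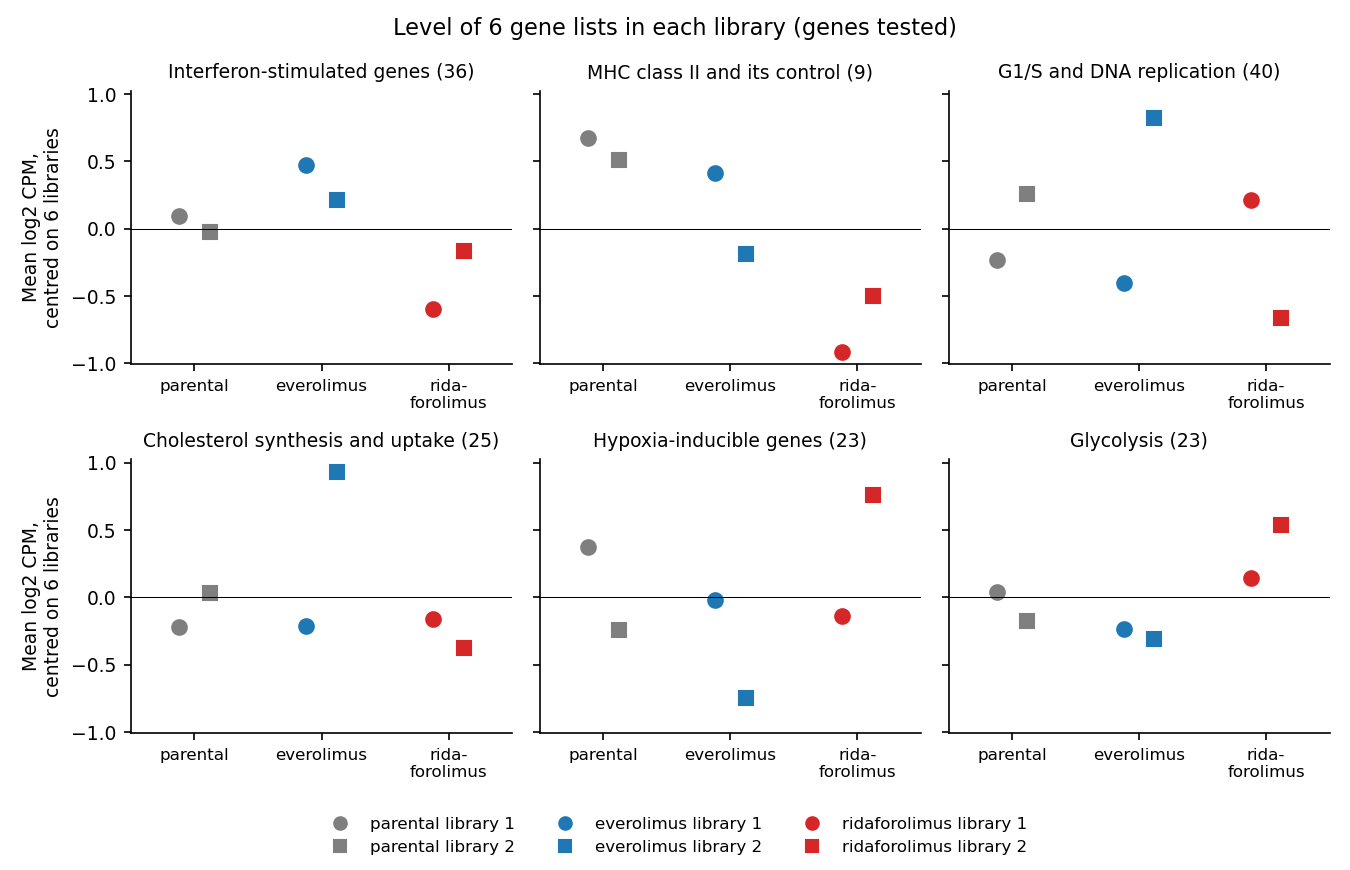
Mean log2 CPM of the tested genes of 6 lists in each library, centred on the mean of the 6 libraries, with the number of genes in brackets. Interferon-stimulated genes, MHC class II and glycolysis separate the ridaforolimus (red) from the everolimus libraries (blue), whereas for G1/S genes, cholesterol synthesis and hypoxia-inducible genes 1 library of a line stands away from its partner, as everolimus library 2 does at 0.94 for cholesterol synthesis.

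Glycolysis had 22 of 23 estimates above 0 (median 0.45, lowest 0.23 without ridaforolimus replicate 2). The hexokinases HK1 (0.92, adjusted p = 0.114) and HK2 (1.04, adjusted p = 0.0576), which open the pathway, and the aldolase ALDOC (1.95, adjusted p = 0.0655) did not pass, and PGK1 stood at 2.25 (adjusted p = 0.0371). HK2 was at 50.4 and 60.4 CPM in everolimus, 108 and 120 CPM in ridaforolimus and 98.1 and 104 CPM in parental libraries, so for this gene the everolimus line was the one off parental. Hypoxia-inducible genes had 18 of 23 above 0 (median 0.75), with 0 calls in edgeR and 9 at an unadjusted p under 0.05, beside 14.1% of all genes tested. Their level on the same relative scale was -0.02 and -0.75 in the everolimus line against -0.13 and 0.76 in the ridaforolimus line, and without ridaforolimus replicate 2 the median was 0.24. DESeq2 called 5 glycolysis and 2 hypoxia-inducible genes higher, and limma-voom 1 and 0. CA9, a carbonic anhydrase induced by hypoxia, was at 0.724 and 0.0661 CPM against 1.45 and 12.6 CPM (4.16, adjusted p = 0.157).

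Replicate libraries within a line diverged in proliferation and sterol genes, and this bears on several lists. G1/S and DNA replication genes were at -0.40 and 0.82 in the everolimus line against 0.22 and -0.67 in the ridaforolimus line, and their median of -0.57 (38 of 40 below 0) turned to 0.30 without everolimus replicate 2. G2/M and mitosis genes had a median of -0.38 (39 of 43 below 0), which turned to 0.09 without that library. Cholesterol synthesis and uptake had 23 of 25 below 0 and a median of -0.66, which was -0.15 without everolimus replicate 2, the library at 0.94 where the other 5 lay between -0.38 and 0.03. In these 3 lists 0 genes passed in edgeR. An unadjusted p under 0.05 was reached by 4 of 40, 3 of 43 and 10 of 25 members, beside 14.1% of all genes tested. The G1/S and G2/M counts lay below that share. Nuclear oxidative phosphorylation (67 of 75 below 0, median -0.28) and ribosome biogenesis (36 of 40, median -0.30) had 0 calls as well. Of their members, 14 and 5 had an unadjusted p under 0.05, beside the same 14.1%. Their medians became -0.06 without everolimus replicate 2 and -0.08 without ridaforolimus replicate 2, in that order. DESeq2 called 1 cholesterol gene lower, 1 oxidative phosphorylation gene higher and 3 lower, and 0 in the other 3 lists, and limma-voom called 0 in all 5. More genes differed over 2-fold between replicates in the everolimus (840 of 12103) and ridaforolimus lines (673) than between the parental libraries (94).

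**Figure D4:**
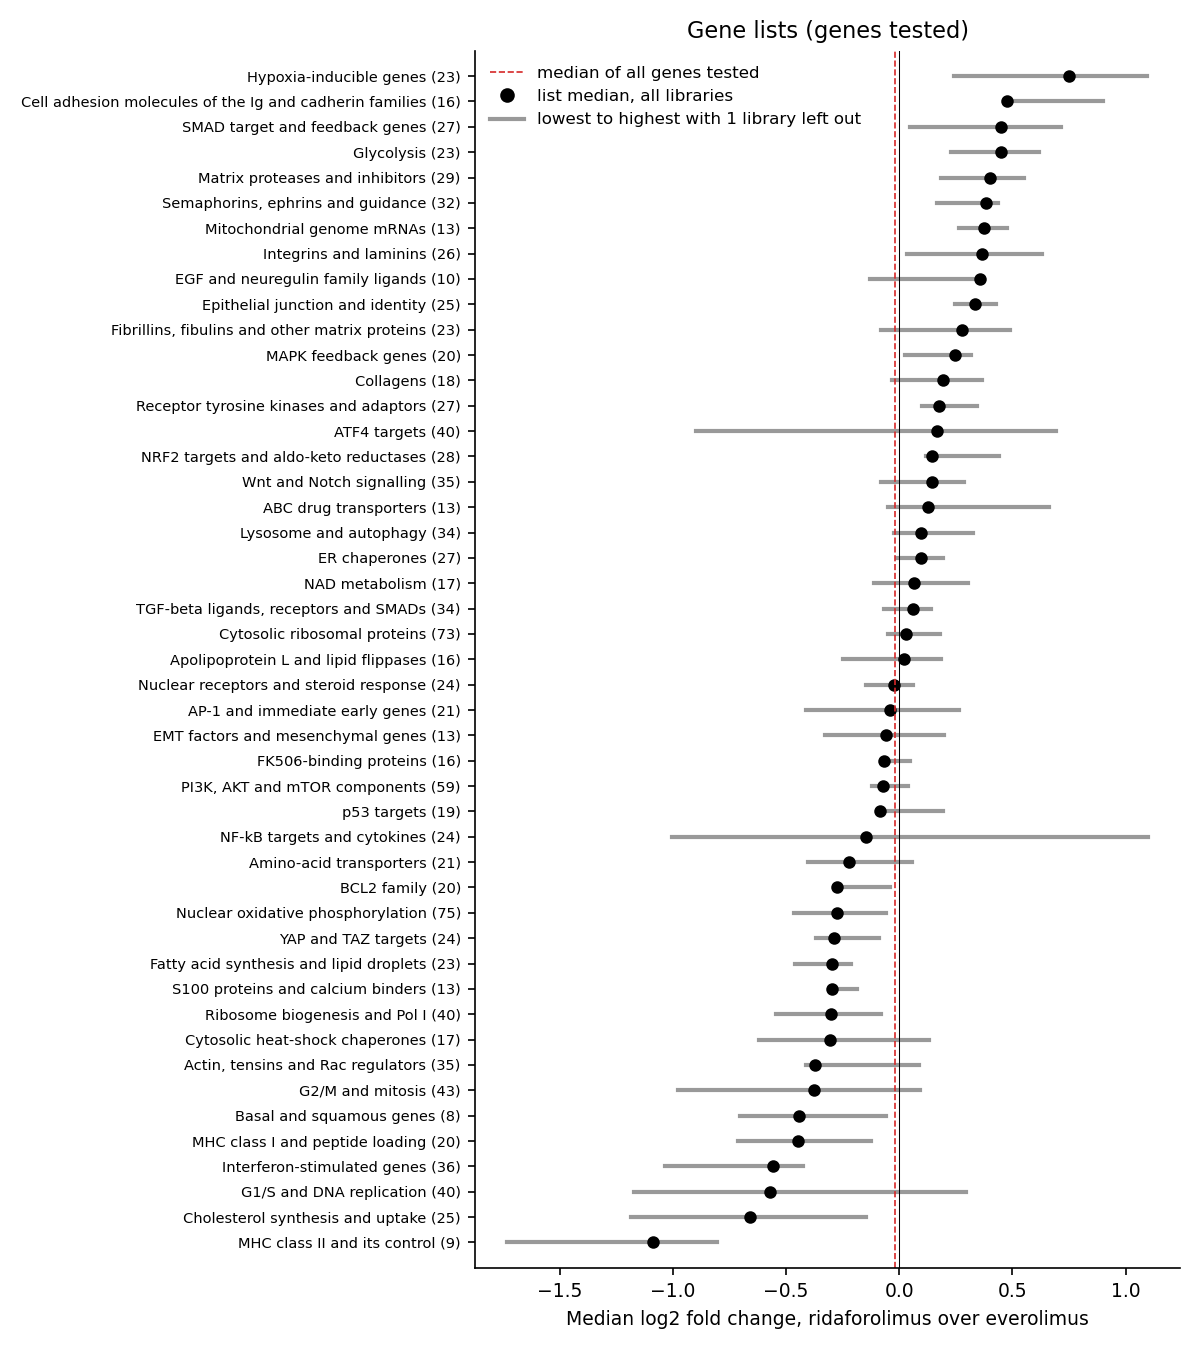
Median log2 fold change of the ridaforolimus over the everolimus line for 47 lists of pathway genes (points; number of tested genes in brackets), with grey bars from the lowest to the highest median when 1 of the 6 libraries is left out and a dashed line at the median of all genes tested. MHC class II (-1.09), cholesterol synthesis (-0.66) and G1/S (-0.57) lie lowest and hypoxia-inducible genes (0.75) highest. The bars of many lists cross 0, those of the G1/S, G2/M, ATF4 and NF-kB lists among them.

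By position, the calls were spread over the autosomes with a few clusters. Chromosome 22 had 4 higher and 3 lower calls (1.59% of 441 genes tested there), chromosome 10 had 8 and 4 (1.44% of 836), chromosome 12 had 8 and 0 (0.706% of 1133) and chromosome 21 had 0 and 2 (1.01% of 198), beside 0.622% over all autosomes. On chromosome 10, AKR1C4, an aldo-keto reductase of steroid metabolism, and the non-coding RNA LINC02561 lie within 47084 bp of each other and were both higher (3.86 and 4.29), and the neighbouring AKR1C1, AKR1C2 and AKR1C3 stood at 1.59, 2.25 and 2.03 without passing. These reductases are similar in sequence, so reads may have been split among them. The AKR1C4 call rests on few counts, 3 and 2 in the everolimus libraries against 25 and 46 in the ridaforolimus ones. LTBP2 on chromosome 14 had a non-coding neighbour 2315 bp away that was higher as well (2.68), while PGF, a growth factor of blood vessels 329456 bp away, was lower (-2.12). SLC5A4, of the glucose transporter family, and its antisense gene on chromosome 22 (3.56 and 3.54) overlap, and their reads cannot be told apart either. EDIL3 and its divergent transcript on chromosome 5 (-1.87 and -2.57) overlap only at their starts.

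Wider stretches leaned one way without many calls. Windows of 10 Mb were taken with at least 20 tested genes averaging 5 CPM or more (223 windows, median of their medians -0.01). At 180 to 190 Mb of chromosome 4, 20 of 21 such genes had estimates below 0 (median -0.71). So had 35 of 40 at 120 to 130 Mb (-0.65) and 52 of 58 at 110 to 120 Mb (-0.54) of chromosome 11. In these windows of chromosomes 4 and 11 the everolimus line was above parental (medians 0.36, 0.38 and 0.21) and the ridaforolimus line below it (-0.36, -0.24 and -0.22). At 100 to 110 Mb of chromosome 8, 27 of 28 were below 0 (-0.52). There the ridaforolimus line stood at -0.54 and the everolimus line at 0.07 against parental. On chromosome 3 the windows between 100 and 160 Mb had medians of 0.26 to 0.42, with 29 of 31 genes above 0 at 150 to 160 Mb, where the ridaforolimus line was at 0.62 and the everolimus line at -0.01 against parental. Over whole chromosomes the median was lowest on chromosome 21 (-0.40) and highest among autosomes on chromosome 3 (0.18). Copy number was not measured here. Chromosome X held 34 calls, 32 higher and 2 lower (5.78% of 588 genes tested there), among which POF1B, APOOL (2.39), CHM (1.93) and PHKA1 (1.93) are examples of the lowest p. The median over that chromosome was -0.10. Many of its higher calls, PGK1 among them, lay between ZC4H2 (start at 64915802) and CHM (end at 86047562), while IL1RAPL1 (start at 28587399) lay elsewhere. POF1B had 220 counts in the ridaforolimus and 0 in the everolimus line, at least 79.1-fold higher.

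The identity of the cells was checked against markers. Of the 12 genes listed for MDA-MB-231, VIM, AXL, EGFR and CD44 were high in all 6 libraries, the lowest value being 133.6 CPM for CD44, while SPARC was at most 1.02 CPM and S100A4 between 5.26 and 18.0 CPM. Endothelial ERG, fibroblast LUM and neuronal STMN2, ELAVL4, NEFL and NEFM were at 0 in all libraries. The summed level was 47.8 to 80.3 CPM over the 10 endothelial markers, of which ESAM alone held 31.7 to 62.5 CPM, 6.67 to 16.9 CPM over the 10 fibroblast markers and 14 to 42.2 CPM over the 11 neuronal markers.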

How the data were processed

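RNA was extracted with a column kit and made into stranded mRNA libraries (TruSeq Stranded mRNA), per the labels' protocols. The authors deposited whole-number counts per gene, and the submitters' processing notes name Trim Galore 0.6.6, STAR 2.7.9a, HTSeq 0.13.5, DESeq2 and GRCh38 (hg38). For the annotation release and the strand setting of the counting, the sources used here give nothing. Of 69292 gene identifiers 28459 had no count, 62625 had a symbol and 58279 a position in GENCODE 29. The comparisons used edgeR 4.0.16 (R 4.3.3) on the deposited counts: TMM scaling, filterByExpr, and the quasi-likelihood test on all 6 libraries with Benjamini-Hochberg adjustment over 21223 genes. All tests were two-sided, and ± values are standard errors of fitted log2 fold changes. CPM values are counts over scaled library size, list levels are means of log2 CPM with a prior count of 2, and the floor for absent genes was 3 counts over the 2 libraries of a line. Counting intervals are exact at 95%. With 2 libraries against 2, an exact permutation test of a single value cannot go below p = 0.333.

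Alternatives were other scalings and filters, DESeq2 1.42.0, limma 3.58.1 (voom), the 4 resistant libraries alone, a replicate block, autosomal genes alone and leaving out each library. The crossed block and the autosomal counts under each alternative were added after the data were seen. Named genes were the 15 largest called autosomal differences in each direction at a mean of at least 5 CPM, leaving out pseudogene, clone, LINC and antisense names, up to 4 members of each list and a fixed set of pathway genes. The comparison, the 53 gene lists (6 of cell type markers) and the rules were chosen with earlier results of these data known. The fitting steps were tested on simulated data.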

Additional observations from a re-analysis of the deposited data

Results flagged for a closer look

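For 22 of the named genes the lines lay on opposite sides of both parental libraries, and the direct comparison of the lines passed an adjusted p of 0.05 in edgeR. This is an order of libraries and not a called departure from parental. In the everolimus line only CASC19, which is not among the 22, passed against parental, and ATP10A stood at 0.39 (adjusted p = 0.659 in edgeR). The direct difference chose these genes, and the comparisons with parental cells share the parental libraries. Of the 22, 9 were lower in the ridaforolimus line. The log2 differences were -6.58 for F13A1 (-3.50 in the ridaforolimus and 3.07 in the everolimus line against parental), -3.82 for VIPR1 (-1.12 and 2.7), -3.33 for HAS2 (-2.15 and 1.17), -2.98 for ATP10A (-2.59 and 0.39) and -2.97 for FST (-1.31 and 1.66). They were -2.65 for PARP10, -2.31 for FBLN1, -2.0 for TLR4 and -1.98 for CABLES1.

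The other 13 were higher in the ridaforolimus line. The differences were 4.82 for GRAMD1B (3.21 and -1.61 against parental), 3.46 for ITGAX (2.68 and -0.78), 3.37 for RYR2 (1.31 and -2.06), 3.03 for PDE2A (2.04 and -0.99), 2.73 for CALB2 (1.84 and -0.88) and 2.73 for MYH15 (1.86 and -0.87). They were 2.71 for HSPB8, 2.64 for PANX2, 2.46 for FBXL13, 1.93 for LCP1, 1.79 for ESRP1, 1.66 for OSGIN1 and 1.47 for PIK3CD.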

How the results depend on the processing

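The number of calls moved with the processing. The 158 calls between the lines became 1362 with no filter on low counts, 81 at a minimum of 5 CPM in 2 libraries, 657 in DESeq2 (1235 adjusted p not given), 0 with the 4 resistant libraries alone, 64 with autosomal genes alone, and 0 to 77 with 1 library left out. The 122 autosomal calls became 1169, 57, 530, 0, 64 and 0 to 60 in the same order, and 79 in limma-voom. The 68 calls of the ridaforolimus line against parental became 1195 with no filter, 574 in DESeq2, 127 with only the libraries compared, 31 with autosomal genes alone and 1 to 180 with 1 library left out. The 1 call of the everolimus line became 0 with upper-quartile scaling, 493 with no filter, 0 at the 5 CPM minimum, 150 in DESeq2, 0 with only the libraries compared, 0 with autosomal genes alone and 0 to 2 with 1 library left out. The cause was not tested. With a replicate block the counts were 49 between the lines, 38 autosomal, 28 and 0. The deviations of same-numbered libraries correlated at 0.49 (parental and everolimus), -0.34 (parental and ridaforolimus) and -0.33 (everolimus and ridaforolimus). Whether the replicate numbers pair the samples cannot be decided from these values, and the labels state no pairing. With the numbers of the ridaforolimus libraries exchanged (the crossed block), the block gave 1044 calls, 872 of them autosomal. That exchange was chosen after the data were seen. Among named genes and some further genes picked by hand, 2355 results across settings were labelled the same, 409 lost the call, 95 gained it and 12 moved. For a called gene, the same means that direction and call were kept. For a gene that was not called, it means an estimate within the replicate spread of the main one, whatever its sign. Of 53 list medians 24 kept their sign in every setting. With 13134567 to 15556246 counts per library and 2 libraries per line, genes below 5 CPM rest on few counts.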
